A study of Drosophila melanogaster with 18 samples.

Results

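The difference between INT and NINT flies that males and females had in common was examined in 12 whole-fly RNA-seq libraries of Drosophila melanogaster, out of 18 in the series. Flies were 5 days old, and each of the 6 groups had 3 libraries. INT males, INT females, NINT males and NINT females came from generation F12 and carry the same strain label, genetically heterogenous. Founder (F0) males and females are labelled with a panel of laboratory and wild-type strains, among them Canton-S, Harwich, Oregon-R-C, w1118, multiple wing hairs (mwh) and flare3 (flr3). What the letters INT and NINT stand for is not in the labels; the series is titled as a study of higher intelligence and lifespan. The labels do not say how many populations stand behind each name, so a property of the line and a property of 1 population bred under that name cannot be told apart.

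A gene was counted as shared when it passed 3 conditions. Its level in INT, averaged over the sexes on the log2 scale, had to differ from that in NINT at an adjusted p under 0.05 in a fit of all 18 libraries. Its male and female differences also had to have the same sign, with an unadjusted p under 0.05 in males alone and again in females alone. Of 15304 genes tested, 299 (1.95%) were called over both sexes, 208 of them higher in INT (1.36%) and 91 lower (0.595%). Calls higher in INT were thus 69.6% of the calls, but 56.9% when ribosomal RNA was left out of the library sizes, 47.7% in a fit of INT and NINT libraries only and 22.7% without INT male 3. Of these, 126 were shared (0.823% of genes tested), 93 higher in INT (0.608%) and 33 lower (0.216%).

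Whole-fly RNA mixes all organs of the animal. Muscle, gut, fat body, nervous system and cuticle are common to both sexes, while ovary, testis and accessory gland give the transcripts that differ most between males and females. Metal-binding proteins, antimicrobial peptides, odorant carriers and digestive enzymes are made mainly in the organs common to both. In such bulk samples, fewer cells of a type and less RNA per cell cannot be told apart.

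The shared genes higher in INT included muscle, mitochondrial, photoreceptor and odorant-binding genes. The median log2 fold change of all shared genes higher in INT was 0.90 over both sexes. The shared genes lower in INT included mat, 3 metallothioneins, the iron carrier Tsf1, the Toll-induced peptides BomS5 and Dso2, and Arc2. Each of these groups is described with its values below. Levels are counts per 1e6 counts after TMM scaling (CPM), there are 3 libraries per group throughout, and fold changes are of INT over NINT. A gene that rose or fell was thus higher or lower in INT than in NINT, which does not give its change from F0.

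Male libraries held 31.8 to 39.2 M counts, and female libraries held 31.6 to 35.4 M in INT, 40.9 to 47.2 M in NINT and 50.2 to 58.3 M in F0. Markers of muscle, fat body, gut, neurons, eye and hemocytes were detected in every group, ovary markers summed to 16504 CPM or more in INT and NINT females, and the male accessory gland markers to 1557 CPM or more in INT and NINT males. Groups or single libraries stood apart in several places. The summed ovary markers (Yp1, Yp2, Yp3, Vm26Aa and osk, all 5 with counts) were at 10.2, 14.3 and 11.7 CPM in INT males, against 116, 725 and 925 CPM in NINT males. F0 males were at 1208, 592 and 6.05 CPM, so these transcripts were not particular to NINT males. The muscle markers Act88F and Mhc summed to 1472, 2122 and 9633 CPM in INT females, against 1009.8, 1119.7 and 811 CPM in NINT females, so that INT female 3 was far above the other 5. INT male 3 differed from the other INT males by a chi-square per gene of 484 and 445, against 160 between those other 2. Its male accessory gland markers summed to 2174 CPM, against 4476 and 4855 CPM in INT males 1 and 2. In NINT female 1 these markers summed to 67.4 CPM, against 1.94 and 1.99 CPM in NINT females 2 and 3. Ribosomal RNA took 10.413% to 23.157% of counts in INT females, against 5.944% to 7.363% in NINT females. In F0 females, which enter the fits, it took 20.278% to 36.262%. Their muscle markers summed to 31476, 19455 and 2406 CPM. F0 females 1 and 3 differed by a chi-square per gene of 1230, the largest of any replicate pair. The labels do not say whether replicates came from separate cultures, so p-values may measure technical spread only.

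The male and the female comparison, which share no library, were first set side by side. In males alone 6 of 15051 genes passed an adjusted p under 0.05 (0.0399%), and in females alone 131 of 13169 (0.995%). Of 12930 genes tested in each sex, 2229 had an unadjusted p under 0.05 in males and 1890 in females. Both conditions were met by 358 genes, of which 285 had the same direction and 73 opposite directions. The 285 made up 12.8% of the male list and 15.1% of the female list. The direction was the same for 79.6% of the 358 genes, against 61.5% of all genes tested in each sex. Across genes, which are not independent replicates, the male and female log2 fold changes had a Pearson correlation of 0.12 and a Spearman correlation of 0.25. Most genes past that threshold in one sex were not past it in the other.

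**Figure D1:**
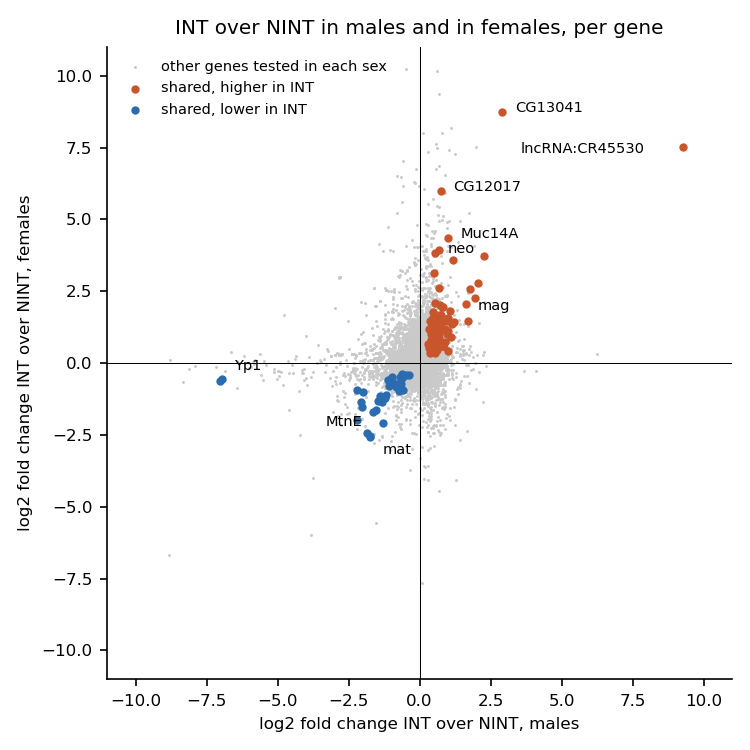
Each point is a gene, with its log2 fold change of INT over NINT in males on the x axis and in females on the y axis; grey points are the other genes tested in each sex, orange points the 93 shared genes higher in INT and blue points the 33 lower. Orange points extend further upward than to the right, with a median of 0.62 in males and 1.15 in females.

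Among the 93 shared genes higher in INT, the median log2 fold change was 0.62 in males and 1.15 in females, and 80 of the 93 changed more in females. Among the 33 lower in INT, the medians were -1.20 in males and -0.95 in females, and 20 of the 33 changed more in males. The difference between the sexes passed an adjusted p under 0.05 for 2 of the 126, neo and CG12017, against 41 of all genes tested (0.268%). An unadjusted p under 0.05 in that edgeR test was reached by 24 of the 126, against 1865 of 15304 genes tested. Libraries of INT and NINT did not overlap in either sex, in the same direction, for 100 of the 126. That was true of 918 of all genes tested (6.0%), and the shared genes were chosen in the same libraries. A mean of at least 5 CPM in 1 of the 4 INT and NINT groups was reached by 104 of the 126.

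The calls depended on single libraries. With each of the 12 INT and NINT libraries left out in turn, the number of shared genes was 23, 25 and 547 without INT male 1, 2 and 3, and 51, 22 and 32 without NINT male 1, 2 and 3. It was 77, 66 and 66 without INT female 1, 2 and 3, and 29, 41 and 63 without NINT female 1, 2 and 3. Those higher in INT were 292 of the 547 without INT male 3 and 29 of the 63 without NINT female 3. INT male 3 was the INT male nearest to NINT for 76 of the 93 genes higher in INT and for 22 of the 33 lower. INT female 3 was the INT female farthest from NINT for 51 of the 93 and for 23 of the 33. All 126 genes kept their direction over both sexes in every such fit. They were chosen in these same libraries, so that was largely set in advance and is no independent check. Shared in all 12 fits were 13 genes: mat, CG34134, CG4461, CG2909, t, CG16904, CG44013, Obp19a, CG8679, CG5758, CG18609, Gbeta76C and MtnE. Another 21 were shared in 1 or none of the 12.

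**Figure D2:**
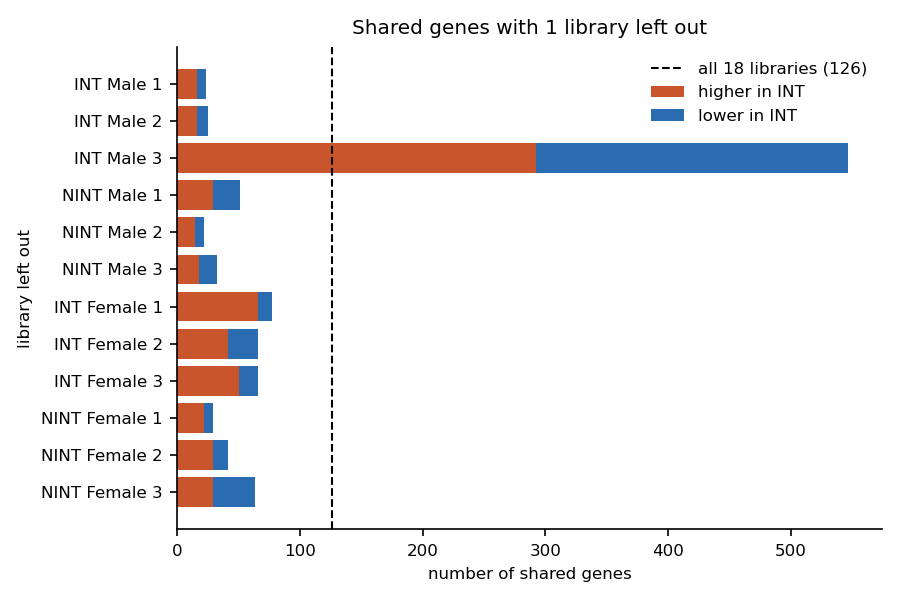
Bars give the number of shared genes (x axis) when the library named on the y axis is left out of the fits, split into higher (orange) and lower (blue) in INT; the dashed line marks the 126 genes of the full set. The bar for INT male 3 reaches 547, and the other 11 lie between 22 and 77.

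The gene lower in INT with the smallest p was mat (materazzi, listed under its older symbol CG13905), which encodes a lipid-binding protein that acts in the Malpighian tubules, the renal organs of the fly. It lies on chromosome 3L at 902898 to 903810 (dm6). In males it had 14.9, 10.7 and 24.3 CPM in INT, against 61.6, 46.1 and 57.2 CPM in NINT. INT females had 3.82, 3.24 and 2.09 CPM, against 17.9, 23.7 and 13.3 CPM in NINT females. Every INT library lay below every NINT library of its sex. mat was 4.45-fold lower in INT over both sexes (log2 fold change -2.15, SE 0.23, adjusted p = 0.00078). F0 flies, with means of 5.16 ± 1.74 CPM in males and 2.12 ± 0.131 CPM in females (SD), lay below all INT males and overlapped INT in females.

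Metallothioneins are small cysteine-rich proteins that bind copper, zinc and cadmium. MtnB, MtnD and MtnE were shared and lower in INT; they were grouped after their values were seen, and their genes lie on chromosome 3R, with MtnD and MtnE starting 941 bases apart on opposite strands. MtnE had 10.5, 10.6 and 7.75 CPM in INT males, against 28.8, 24.7 and 27.1 CPM in NINT males. INT females had 3.43, 4.59 and 3.97 CPM, against 16.3, 7.97 and 12.8 CPM in NINT females. The groups did not overlap in either sex, and MtnE fell 2.94-fold (log2 -1.56, SE 0.27, adjusted p = 0.014).

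MtnD had 3.59, 6.36 and 4.18 CPM in INT males, against 16.8, 12 and 13.3 CPM in NINT males. INT females had 0.814, 2.53 and 1.18 CPM, against 5.11, 5.16 and 4.86 CPM in NINT females, again with no overlap. It fell 3.14-fold (log2 -1.65, SE 0.32, adjusted p = 0.02). MtnB, at 6.18, 5.76 and 5.82 CPM in INT males against 19.2, 22.2 and 26.3 CPM in NINT males, fell 2.77-fold (log2 -1.47, SE 0.28, adjusted p = 0.02). In females MtnB was at 5.31, 5.3 and 8.01 CPM in INT, against 13.1, 8.43 and 15.8 CPM in NINT, which left a narrow gap between the groups.

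The other 3 metallothioneins tested did not pass over both sexes. MtnA had 3867, 4568 and 3134 CPM in INT males, against 3181, 2664 and 3478 CPM in NINT males, which overlapped. INT females had 791, 543 and 543 CPM, against 1998, 1838 and 1287 CPM in NINT females, which did not (log2 over both sexes -0.57, SE 0.18, adjusted p = 0.11). MtnC gave a log2 of 0.19 (SE 0.21, adjusted p = 0.63) and MtnF 0.32 (SE 0.19, adjusted p = 0.34). In males MtnC was higher in INT without overlap, at 168, 231 and 135 CPM against 96.8, 118 and 91.6 CPM in NINT. In females its log2 was -0.42 (SE 0.24). F0 levels did not follow one pattern within the family, since the F0 mean of MtnB in males was above both F12 lines, with 52.4, 119 and 123 CPM, while F0 females had 0.919, 0.827 and 0.223 CPM of MtnD, below all 3 NINT females.

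Tsf1 (X chromosome, 18387084 to 18390344) encodes transferrin, the iron carrier of the hemolymph, and also fell. In males it had 409, 514 and 959.6 CPM in INT, against 1573, 1369 and 1343 CPM in NINT. INT females had 105, 110 and 95.3 CPM, against 365, 253 and 115 CPM in NINT females. The groups did not overlap, but the third INT male and the third NINT female came nearest to the other line. The fold change was 2.32 (log2 -1.21, SE 0.26, adjusted p = 0.031), and Tsf1 was shared in 2 of the 12 fits that leave out 1 library.

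Antimicrobial peptides and bomanins are secreted by the fat body when the Toll or Imd pathway senses microbes. Of 38 members tested, 4 were called lower in INT and 0 higher, 2 of them shared (BomS5 and Dso2). Among all genes tested, 0.595% were called lower and 0.216% were shared and lower. The median log2 fold change of the list was -1.23, beside 0.02 over all genes tested, and 34 of the 38 were below 0 in each sex, against 4228 of the 15304 genes tested. BomS5, a short bomanin, had 29.5, 35.5 and 23.6 CPM in INT males, against 117, 129 and 111 CPM in NINT males. INT females had 19.4, 27.3 and 15.6 CPM, against 86.9, 54.4 and 20 CPM in NINT females. The males were fully apart, and in females NINT 3 lay inside the INT range.

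BomS5 fell 3.23-fold (log2 -1.69, SE 0.32, adjusted p = 0.02). Dso2, one of a pair of Daisho peptides that act against filamentous fungi, had 50.4, 81.8 and 64.8 CPM in INT males, against 175, 191 and 129 CPM in NINT males. In females it had 17.6, 31 and 16.7 CPM in INT, against 87, 40 and 17.2 CPM in NINT, with the same overlap at NINT 3 and the highest value in NINT 1. Its fold change was 2.35 (log2 -1.23, SE 0.30), with an adjusted p of 0.0493 that stood just inside the threshold. The related BomS1 was called over both sexes (log2 -1.38, SE 0.32, adjusted p = 0.039) without support in females (log2 -0.98, SE 0.53). BomS2 had support in each sex but an adjusted p of 0.051 (log2 -1.22, SE 0.30). BomS5 and Dso2 were shared in 5 and 2 of the 12 fits that leave out 1 library. The summed hemocyte markers (Hml, NimC1 and Pxn, all 3 with counts) lay at 57.2 to 152 CPM in INT males, against 85.9 to 107 CPM in NINT males, and at 75.8 to 97 CPM in INT females, against 54.9 to 94.4 CPM in NINT females.

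Arc2, a paralog of the neuronal gene Arc1, encodes a retrovirus-like capsid protein. It had 3.95, 3.04 and 5.73 CPM in INT males, against 9, 10.9 and 8.47 CPM in NINT males. INT females had 2.44, 2.8 and 2.06 CPM, against 6.82, 5.45 and 3.63 CPM in NINT females. The groups did not overlap in either sex. Arc2 fell 2.2-fold (log2 -1.14, SE 0.19, adjusted p = 0.01), by nearly the same log2 amount in males (-1.18, SE 0.29) and in females (-1.11, SE 0.28).

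Arc1, its neighbour on the other strand (2R, 14357927 to 14360297), was called over both sexes (log2 -1.32, SE 0.30, adjusted p = 0.039), but it lacked support in males (log2 -0.83, SE 0.42). The third INT male, with 1526 CPM, stood near the NINT males at 1648, 1543 and 1679 CPM, while the other INT males had 607 and 619.9 CPM. In females Arc1 had 183, 191 and 227 CPM in INT, against 943, 922 and 251 CPM in NINT, so that NINT 3 stood near INT. Arc1 belongs to the learning and memory list, of whose 42 members it was the only one called and none was shared. The share called over all genes tested was 1.95%. The list median was 0.27.

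Further genes lower in INT had fewer known functions. Srg3, a STING-regulated gene, had 25.8, 22 and 38.5 CPM in INT males, against 102, 75.9 and 56 CPM in NINT males. INT females had 8.39, 6.92 and 7.63 CPM, against 30, 15 and 12.6 CPM in NINT females, and it fell 2.61-fold (log2 -1.38, SE 0.25, adjusted p = 0.017). Its groups did not overlap. CG14245 fell 2.9-fold (log2 -1.54, SE 0.23, adjusted p = 0.0052), with 18.3, 24.8 and 23.6 CPM in INT males, against 114, 99.6 and 80.5 CPM in NINT males, and a smaller log2 change in females (-0.93, SE 0.39) than in males (-2.19, SE 0.21). That difference between the sexes did not pass (adjusted p = 0.27).

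CG44013 had 14.9, 13.8 and 19.6 CPM in INT males, against 53.3, 22.8 and 41.2 CPM in NINT males. INT females had 2.09, 2.09 and 1.71 CPM, against 6.03, 5.57 and 3.57 CPM in NINT females (log2 over both sexes -1.32, SE 0.20, adjusted p = 0.0067). CG2909 was lower by less, with 13.7, 14.3 and 11.6 CPM in INT males against 25, 27.5 and 23.3 CPM in NINT males (log2 -0.77, SE 0.11, adjusted p = 0.0044). Both were shared in all 12 fits that leave out 1 library, as was CG8679 (log2 -0.83, SE 0.14, adjusted p = 0.01). CG31075 (log2 -0.78) and CG15126 (log2 -0.76) completed the genes with the smallest p among those lower in INT and at 5 CPM or more. Acbp6, which encodes a protein that binds long-chain acyl-CoA, was lower too, with 2.9, 0.923 and 3.37 CPM in INT males against 13.3, 5.3 and 6.65 CPM in NINT males (log2 over both sexes -2.12, SE 0.45, adjusted p = 0.031).

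The lower genes with the largest fold changes were Yp1 and the antisense entry asRNA:CR45601 that lies within it. Yp1 encodes a yolk protein, which female fat body and ovary make. In males Yp1 had 1.38, 2.15 and 2.34 CPM in INT, against 41.4, 253 and 428 CPM in NINT and 384, 234 and 0.93 CPM in F0. INT females had 6345, 6339.8 and 6175 CPM, against 10332, 8423 and 8837 CPM in NINT females. Males and females thus shared the direction but differed in size, with log2 fold changes of -6.96 (SE 1.79) in males and -0.54 (SE 0.23) in females, and the difference between them had an adjusted p of 0.11. Over both sexes the log2 was -3.75 (SE 0.83, adjusted p = 0.036).

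Yp1 is itself one of the summed ovary markers given above. osk, a germline gene of the ovary that encodes no yolk protein, had 0.223, 0.499 and 0.292 CPM in INT males, against 3.06, 23.1 and 55.8 CPM in NINT males. Yp2 (log2 -3.56, SE 0.87, adjusted p = 0.049) was called over both sexes without support in females (log2 -0.29, SE 0.26). The lower genes Yp1, asRNA:CR45601, CG12708 and CG10738, had a mean in NINT females more than 10 times that in INT males, which was so for 12.1% of the 33 and 3.27% of all genes tested. The part of female RNA in the NINT male libraries in these results was not tested. No source used here gives the strand setting of the counting, so reads of Yp1 and of its antisense entry cannot be told apart. Without NINT males 2 and 3, 18 genes were called over both sexes and 9 were shared, with 1 NINT male left in the fit and assumed to vary like the other groups.

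**Figure D3:**
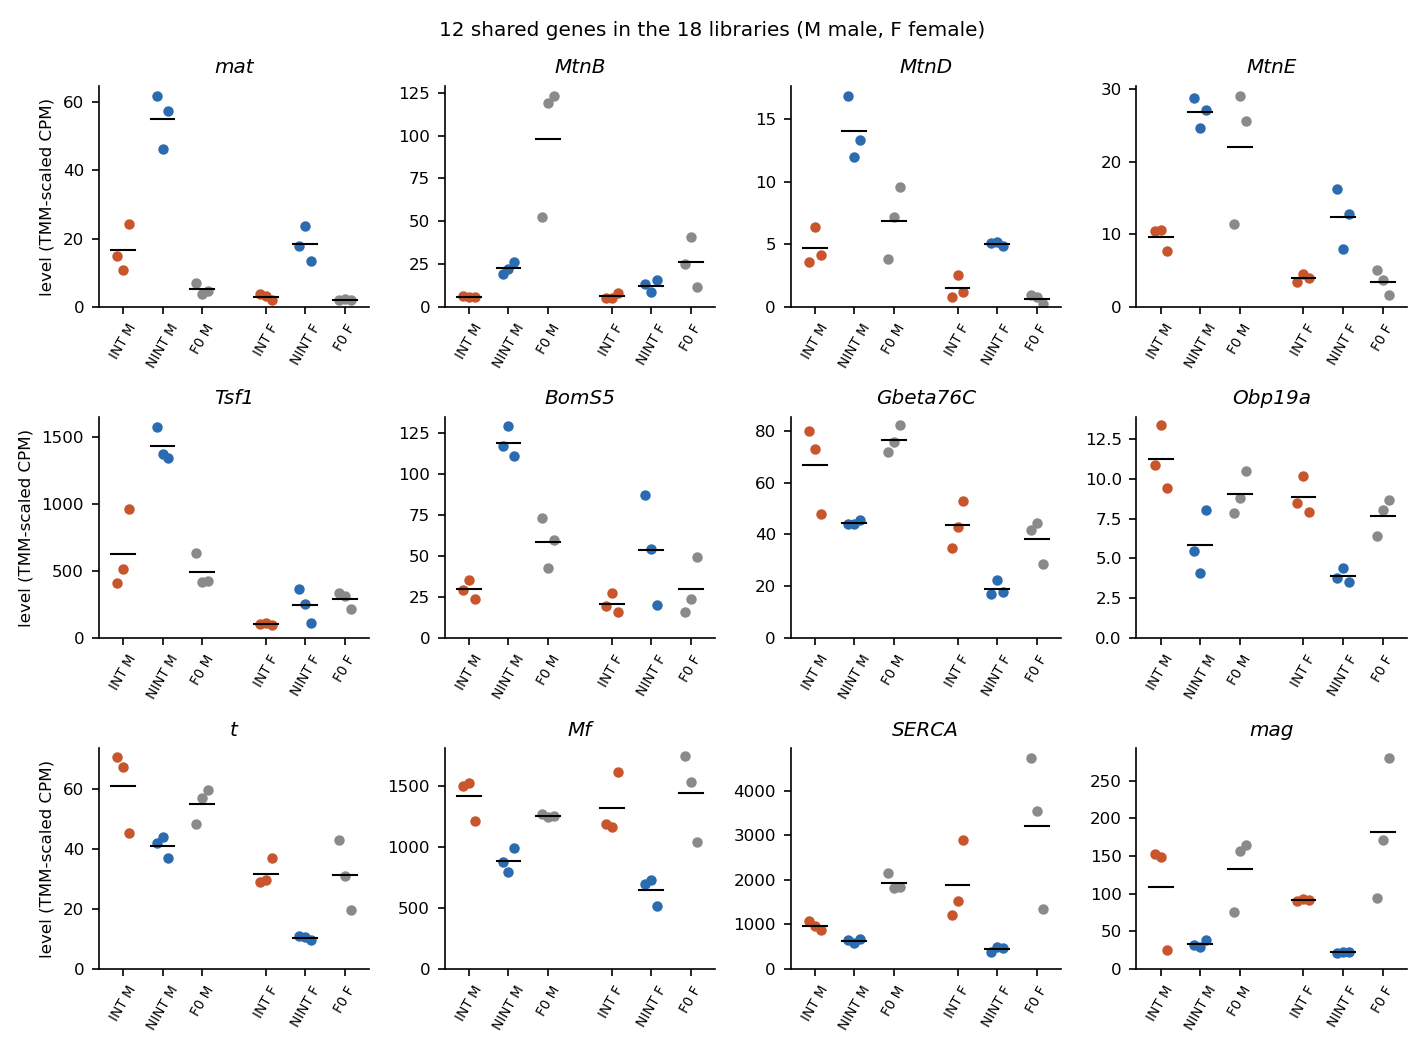
Each panel shows 1 shared gene, with its level in TMM-scaled CPM on a linear y axis from 0; points are libraries and black lines group means, with males on the left and females on the right, in the order INT (orange), NINT (blue) and F0 (grey). mat, MtnB, MtnD, MtnE and Tsf1 lie lower in INT than in NINT in both sexes, BomS5 overlaps at NINT female 3, and mag in INT male 3 lies below the NINT males.

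Muscle structural genes build the sarcomere and its calcium store. Of 34 tested, 6 were called higher in INT and 0 lower, and 3 were shared (Mf, Zasp66 and SERCA). The shares over all genes tested were 1.36% called higher and 0.608% shared and higher. The median log2 of the list was 0.93, with 0.30 in males and 1.44 in females, and 31 of the 34 were above 0 in each sex, against 3724 of 15304 genes tested. Mf encodes myofilin, a protein of thick filaments. It had 1503, 1528 and 1217 CPM in INT males, against 877, 794 and 994 CPM in NINT males. INT females had 1191, 1162 and 1619.9 CPM, against 698, 734 and 515 CPM in NINT females. Mf rose 1.8-fold with no overlap in either sex (log2 0.85, SE 0.15, adjusted p = 0.014), and it was shared in 11 of the 12 fits that leave out 1 library.

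Zasp66 encodes a PDZ-domain protein of the Z-disc and had 485, 513 and 378 CPM in INT males, against 297, 284 and 273 CPM in NINT males. INT females had 268, 311 and 471 CPM, against 197, 208 and 132 CPM in NINT females (log2 over both sexes 0.83, SE 0.16, adjusted p = 0.02). SERCA is the calcium pump that refills the sarcoplasmic reticulum. It had 1067, 953 and 864 CPM in INT males, against 659, 577 and 673 CPM in NINT males. In females it had 1218, 1523 and 2903 CPM in INT, against 378, 489 and 465 CPM in NINT. SERCA rose 2.53-fold (log2 1.34, SE 0.26, adjusted p = 0.02) and its groups were apart in each sex, with INT female 3 the highest. The F0 means, 1931 ± 189 CPM in males and 3208 ± 1721 CPM in females (SD), lay above the INT means of 961 and 1881 CPM.

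The micropeptide genes SclA and SclB encode sarcolambans, small membrane peptides that bind SERCA and regulate it in heart muscle. They were looked up after their values were seen. SclA had 46.5, 42.3 and 33.6 CPM in INT males, against 27, 25 and 32.1 CPM in NINT males, and 21.7, 27.3 and 33.1 CPM in INT females, against 18.8, 20.6 and 17.4 CPM in NINT females. It rose 1.45-fold (log2 0.54, SE 0.12, adjusted p = 0.041), and SclB rose 1.66-fold (log2 0.73, SE 0.13, adjusted p = 0.017). Both are annotated from the same start on 2L (16837972), so their counts overlap and are no independent measurements.

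The fibrillar flight muscle actin Act88F, by contrast, did not pass over both sexes (log2 3.34, SE 1.21, adjusted p = 0.14). It had 11, 10.1 and 8.44 CPM in INT males, against 8.74, 11.3 and 11.1 CPM in NINT males, which overlapped. INT females had 22.4, 70.1 and 1975 CPM, against 4.63, 5.57 and 8.92 CPM in NINT females. Mhc, the muscle myosin heavy chain, had a log2 of 1.11 (SE 0.51, adjusted p = 0.23). The part of muscle content in the calls was not tested.

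Nuclear genes of the respiratory chain and ATP synthase encode the enzymes of oxidative phosphorylation. Of 92 tested, 6 were called higher in INT and 0 lower, 3 of them shared. Genes called higher made up 1.36% of all genes tested, and shared higher genes 0.608%. The median log2 of the list was 0.49 (0.26 in males, 0.78 in females), with 66 of the 92 above 0 in each sex. UQCR-Q, a subunit of complex III, had 543, 601 and 418 CPM in INT males, against 338, 299 and 313 CPM in NINT males. INT females had 535, 490.4 and 663 CPM, against 281, 221 and 275 CPM in NINT females. It rose 1.89-fold (log2 0.92, SE 0.18, adjusted p = 0.02), with no overlap in either sex.

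SdhD, a membrane anchor of complex II, had 115, 119.9 and 88.7 CPM in INT males, against 83.1, 76.8 and 77.8 CPM in NINT males, and rose 1.53-fold over both sexes (log2 0.62, SE 0.14, adjusted p = 0.039). UQCR-6.4L, also a complex III entry, had 16.1, 12.6 and 21 CPM in INT males, against 8.4, 9.91 and 6.87 CPM in NINT males (log2 over both sexes 1.21, SE 0.26, adjusted p = 0.031). In females UQCR-6.4L reached 2.3, 1.88 and 3.94 CPM in INT, against 0.978, 1.36 and 0.646 CPM in NINT. These 3 were shared in 4, 2 and 3 of the 12 fits that leave out 1 library. Among INT and NINT females the largest value of each was in INT 3, as was that of Act88F, and the part of muscle content was not tested.

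**Figure D4:**
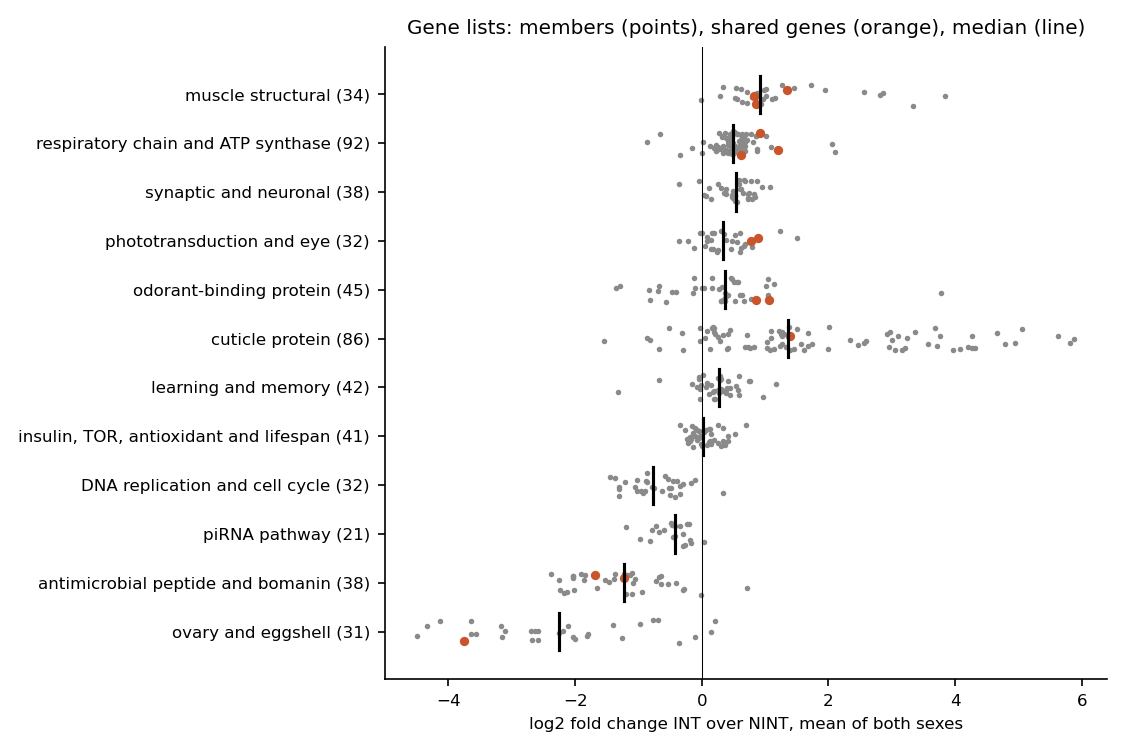
Points are the tested members of 12 gene lists (number in brackets), placed by their log2 fold change of INT over NINT averaged over both sexes; orange points are shared genes and black lines the list medians. The muscle median lies at 0.93 and the respiratory chain median at 0.49, while that of antimicrobial peptides lies at -1.23 and that of ovary and eggshell genes at -2.26.

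In the fly eye, light activates rhodopsin, a Gq protein and phospholipase C, which opens TRP channels. Of 32 phototransduction and eye genes tested, 4 were called higher in INT and 0 lower, 2 of them shared. Beside this, 1.36% of all genes tested were called higher and 0.608% were shared and higher. The list median was 0.33 (0.31 in males, 0.40 in females). Above 0 in each sex were 19 of the 32, and 0 were below 0 in each sex. Gbeta76C encodes the eye-specific G protein beta subunit. It had 79.8, 72.8 and 47.7 CPM in INT males, against 44.1, 44.2 and 45.4 CPM in NINT males. INT females had 34.8, 42.9 and 53 CPM, against 17, 22.3 and 17.9 CPM in NINT females. Gbeta76C rose 1.85-fold with no overlap (log2 0.89, SE 0.15, adjusted p = 0.01), and INT male 3 lay close to NINT.

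Rh2, the opsin of the ocelli, had 24.5, 23.5 and 16.5 CPM in INT males, against 13.5, 11.7 and 11.5 CPM in NINT males. INT females had 9.52, 7.74 and 9.2 CPM, against 3.52, 7.2 and 5.15 CPM in NINT females (log2 over both sexes 0.77, SE 0.17, adjusted p = 0.031). The gene t (tan), outside the list, encodes the hydrolase that frees histamine and dopamine from their beta-alanyl conjugates, and photoreceptors need it to recycle histamine. It had 70.6, 67.4 and 45.3 CPM in INT males, against 41.9, 44.1 and 36.9 CPM in NINT males, and 29, 29.5 and 36.9 CPM in INT females, against 10.9, 10.6 and 9.75 CPM in NINT females. t rose 2.13-fold (log2 1.09, SE 0.16, adjusted p = 0.0056), by a log2 of 0.51 (SE 0.15) in males and 1.62 (SE 0.26) in females.

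The inaF locus, whose products act with TRP channels in the eye, was shared through 2 overlapping entries, inaF-B (log2 0.76, SE 0.17, adjusted p = 0.036) and inaF-D (log2 0.75), whose reads cannot be told apart. The markers ninaE, ninaC and trp, all 3 with counts in every group and most of them from ninaE, summed to 4418 to 5749 CPM in INT males, against 2972 to 3363 CPM in NINT males. In females they summed to 1141 to 1406 CPM in INT, against 1399 to 1958 CPM in NINT. ninaE, the main rhodopsin of the compound eye, had a log2 of 0.69 (SE 0.18) in males and of -0.56 (SE 0.22) in females, while Gbeta76C, t and Rh2 were above 0 in both.

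Odorant-binding proteins carry odorants and other small hydrophobic ligands, mostly in antennal lymph. Of 45 tested, 6 were called higher in INT and 0 lower, and 2 were shared. Over all genes tested, 1.36% were called higher. The list median was 0.36 (0.24 in males, 0.64 in females). Above 0 in each sex were 19 of the 45, and 6 were below 0 in each sex. Obp19a had 10.9, 13.4 and 9.46 CPM in INT males, against 5.47, 4.1 and 8.05 CPM in NINT males. INT females had 8.46, 10.2 and 7.91 CPM, against 3.78, 4.38 and 3.5 CPM in NINT females. Every INT library lay above every NINT library of its sex, and the fold change was 2.09 (log2 1.06, SE 0.17, adjusted p = 0.0083).

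Obp69a had 14.4, 16.3 and 13.5 CPM in INT males, against 10.3, 8.14 and 9.74 CPM in NINT males. INT females had 7.54, 6.21 and 6.62 CPM, against 2.03, 4.55 and 3.18 CPM in NINT females (log2 over both sexes 0.85, SE 0.18, adjusted p = 0.027). Obp19a was shared in all 12 fits that leave out 1 library, and Obp69a in 2. In F0 flies, Obp19a lay between the lines in each sex, with means of 9.06 ± 1.36 CPM in males and 7.69 ± 1.17 CPM in females (SD).

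Of 38 synaptic and neuronal genes tested, 2 were called higher in INT, 0 lower and none was shared. The share called higher over all genes tested was 1.36%. The list median was 0.54, with 33 members above 0 in each sex. The markers elav, nSyb and Syt1, all 3 with counts in every group, summed to 526 to 589 CPM in INT males, against 379 to 402 CPM in NINT males. In females they summed to 213 to 292 CPM in INT, against 148 to 202 CPM in NINT. Among shared genes outside the list, Syngr encodes synaptogyrin, a synaptic vesicle membrane protein. It had 21.3, 22 and 18.3 CPM in INT males, against 12.5, 11.4 and 12.7 CPM in NINT males, and 8.21, 9.54 and 15.1 CPM in INT females, against 4.46, 5.37 and 4.99 CPM in NINT females. Syngr rose 1.93-fold (log2 0.94, SE 0.19, adjusted p = 0.024).

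nrv2, a beta subunit of the Na,K-ATPase, rose 1.66-fold (log2 0.73, SE 0.16, adjusted p = 0.031), with 132, 115 and 101 CPM in INT males, against 83.7, 84.8 and 85 CPM in NINT males. igl, a calmodulin-binding protein of neurons, rose 1.61-fold (log2 0.69, SE 0.15, adjusted p = 0.036). Syngr, nrv2 and igl were picked after their values were seen and are not on the synaptic and neuronal list. nrv2 is not counted here as a neuronal gene. The part of neuronal content in these differences was not tested.

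The lipase gene mag (magro), expressed in the gut and active on dietary triglycerides and on sterol esters, is on both the digestive enzyme and the fat body lists and was the one shared member of either. It had 152, 149 and 25 CPM in INT males, against 32, 28.8 and 38.1 CPM in NINT males. In females it had 90, 92.5 and 91.5 CPM in INT, against 21.5, 22 and 22.8 CPM in NINT. The female groups were far apart, whereas INT male 3 lay below all 3 NINT males. Over both sexes mag rose 3.69-fold (log2 1.89, SE 0.36, adjusted p = 0.02).

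Acbp5, an acyl-CoA-binding protein gene, rose 1.69-fold (log2 0.76, SE 0.16, adjusted p = 0.029), while its relative Acbp6 fell, as given above. Acbp5 had 344, 365 and 252 CPM in INT males, against 224, 166 and 231 CPM in NINT males. INT females had 229, 204 and 240 CPM, against 155, 99.5 and 109.8 CPM in NINT females, and the groups did not overlap in either sex.

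CG16904, CG9459 and CG9458, which belong to the family of very-long-chain fatty acid elongases, follow one another on the minus strand of 3R between 9815928 and 9819877 and were all higher in INT. CG16904 had 304, 343 and 274 CPM in INT males, against 119, 128 and 164 CPM in NINT males. INT females had 94, 96.6 and 104 CPM, against 44.6, 51 and 63.6 CPM in NINT females. CG16904 rose 2.04-fold (log2 1.03, SE 0.16, adjusted p = 0.0067), with closely matched log2 changes of 1.11 (SE 0.22) in males and 0.89 (SE 0.18) in females.

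CG9459 had a log2 of 0.77 (SE 0.16, adjusted p = 0.027) and CG9458 of 0.67 (SE 0.11, adjusted p = 0.012), and their libraries did not overlap in either sex. The next 2 genes on the other strand, the elongase gene eloF (log2 -0.23, SE 0.52, adjusted p = 0.84) and CG8534 (log2 1.51, SE 0.99, adjusted p = 0.4), did not pass. CG34134 had 17.1, 15 and 12.1 CPM in INT males, against 10.7, 7.84 and 6.91 CPM in NINT males, and 5.56, 4.97 and 4.56 CPM in INT females, against 1.57, 1.9 and 1.33 CPM in NINT females. It rose 2.34-fold (log2 1.23, SE 0.15, adjusted p = 0.0016) and lay above F0 in both sexes, where means were 5.93 ± 0.644 CPM in males and 2.99 ± 0.336 CPM in females (SD).

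CG4461 had 51.9, 51.3 and 32.1 CPM in INT males, against 26.6, 24.4 and 24.7 CPM in NINT males (log2 over both sexes 1.11, SE 0.14, adjusted p = 0.0029). CG5758, CG18609 and CG14687 rose by log2 0.76, 0.70 and 0.81. CG4830 rose 2.78-fold (log2 1.48, SE 0.24, adjusted p = 0.01), with 1.85, 2.32 and 0.876 CPM in INT males, against 0.727, 0.628 and 0.897 CPM in NINT males, and 11.6, 10.7 and 14.8 CPM in INT females, against 3.62, 3.05 and 4.04 CPM in NINT females. Its male groups overlapped, at INT 3.

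Spn43Aa, which encodes a serpin, and alphaTub85E, an alpha-tubulin gene, had larger changes in females. Spn43Aa had 10.2, 9.03 and 4.83 CPM in INT males, against 5.24, 4.72 and 5.89 CPM in NINT males, and 2.23, 1.82 and 1.08 CPM in INT females, against 0.332, 0.0835 and 0.162 CPM in NINT females. Its log2 was 0.52 (SE 0.22) in males and 3.13 (SE 0.53) in females, with an adjusted p of 0.067 for the difference between the sexes. alphaTub85E rose 3.24-fold over both sexes (log2 1.70, SE 0.28, adjusted p = 0.01). For both genes INT male 3 lay within the NINT male range.

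Among 29 heat shock and chaperone genes 1 was shared, beside 0.823% of all genes tested. That gene was Hsc70-1, a chaperone of the Hsp70 family (log2 1.10, SE 0.26, adjusted p = 0.043). It had 98.4, 84.6 and 57.1 CPM in INT males, against 53.3, 55.3 and 50.2 CPM in NINT males. INT females had 41.6, 42.1 and 84.3 CPM, against 16.7, 23.1 and 15.4 CPM in NINT females. It was shared in 1 of the 12 fits that leave out 1 library.

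Transcription factors and signalling genes were also among the shared genes, and those of this and the next 2 paragraphs were picked after their values were seen. ab (abrupt), a BTB zinc finger transcription factor, had 21.8, 20.8 and 16.4 CPM in INT males, against 14, 13.9 and 14.5 CPM in NINT males. INT females had 10.4, 8.65 and 7.84 CPM, against 4.08, 3.84 and 3.5 CPM in NINT females. The groups did not overlap in either sex, and ab rose with a log2 of 0.85 (SE 0.14, adjusted p = 0.012), shared in 10 of the 12 fits that leave out 1 library. The zinc finger gene odd (log2 0.80, SE 0.15, adjusted p = 0.02), the Pax gene sv (log2 0.89, SE 0.19, adjusted p = 0.031) and the Sox gene SoxN (log2 0.68, SE 0.16, adjusted p = 0.043) rose too. sug (sugarbabe), a zinc finger factor induced by dietary sugar, had 52.5, 46.5 and 33.8 CPM in INT males, against 21.2, 16.3 and 25.4 CPM in NINT males. Its females were closer, at 59.4, 60.3 and 47 CPM in INT, against 42.6, 44.7 and 36.8 CPM in NINT, and over both sexes the log2 was 0.75 (SE 0.16, adjusted p = 0.029).

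MsR2 encodes a receptor of the neuropeptide myosuppressin. It had 4.35, 4.42 and 2.81 CPM in INT males, against 2.2, 2.81 and 2.23 CPM in NINT males, so that INT male 3 met the highest NINT male. MsR2 rose with a log2 of 1.06 (SE 0.19, adjusted p = 0.014) and was shared in 11 of the 12 fits that leave out 1 library. Bace, an aspartic protease gene, had 2053, 2019.6 and 2225 CPM in INT females, against 870.1, 966 and 973 CPM in NINT females, while its male groups overlapped (log2 over both sexes 1.04, SE 0.22, adjusted p = 0.031). The ABC transporter gene Mdr50 (log2 0.80, SE 0.15, adjusted p = 0.017) and the tetraspanin gene Tsp42Ej (log2 0.61, SE 0.13, adjusted p = 0.031) were higher in INT. Npl4, a cofactor of the protein-extracting ATPase TER94, had 242, 244 and 216 CPM in INT males, against 170, 167 and 171 CPM in NINT males (log2 over both sexes 0.47, SE 0.10, adjusted p = 0.03).

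On the lower side, Galphai, an inhibitory G protein alpha subunit, had 74.4, 92.1 and 80.9 CPM in INT females, against 124, 105 and 114 CPM in NINT females (log2 over both sexes -0.57, SE 0.13, adjusted p = 0.035). rad50, a subunit of the complex that senses DNA breaks, had a log2 of -0.55 (SE 0.13, adjusted p = 0.045). Arp8, an actin-related subunit of the INO80 chromatin remodeller, had a log2 of -0.71 (SE 0.14, adjusted p = 0.024).

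Of 86 cuticle protein genes tested, 9 were called higher in INT and 1 lower, but only TwdlG was shared. Among all genes tested, 1.36% were called higher, 0.595% lower, and 0.608% were shared and higher. The list median was 0.00 in males and 2.17 in females. TwdlG had 1.99, 1.55 and 1.93 CPM in INT males, against 1.05, 1.15 and 0.831 CPM in NINT males (log2 over both sexes 1.40, SE 0.34, adjusted p = 0.048). Muc14A, a large mucin gene, had 60.6, 94 and 37.9 CPM in INT males, against 26.8, 38.9 and 26.1 CPM in NINT males, which overlapped. INT females had 25.1, 16.9 and 52.1 CPM, against 2.75, 1.02 and 0.862 CPM in NINT females, and over both sexes it rose 6.51-fold (log2 2.70, SE 0.50, adjusted p = 0.017).

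neo and nyo encode zona pellucida domain proteins of the apical extracellular matrix, and were picked after their values were seen. neo had 2.36, 1.97 and 2.52 CPM in INT males, against 1.88, 1.37 and 1.23 CPM in NINT males, and 3.19, 2.27 and 2.54 CPM in INT females, against 0.203, 0.271 and 0.0897 CPM in NINT females. Its log2 was 0.56 (SE 0.24) in males and 3.82 (SE 0.42) in females, and the difference of 3.20 passed (adjusted p = 0.016). neo and mat had the same, smallest adjusted p of the shared genes, 0.00078. nyo stayed below 1.3 CPM in every F12 library (log2 2.43, SE 0.59, adjusted p = 0.049).

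**Figure D5:**
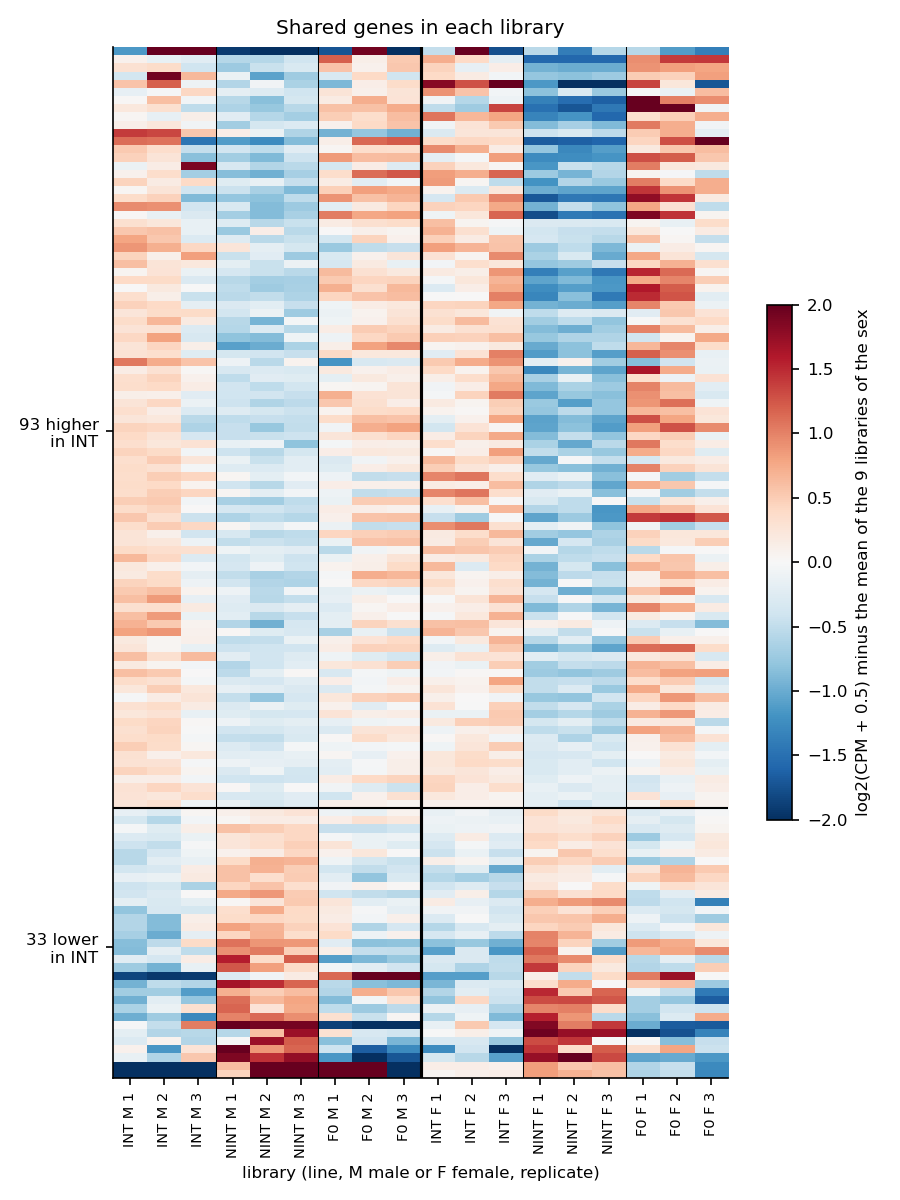
Rows are the 126 shared genes sorted by log2 fold change and columns the 18 libraries, grouped by sex and then by INT, NINT and F0; colour gives log2(CPM + 0.5) minus the mean of the 9 libraries of that sex, cut at 2 in either direction. Most of the 93 higher genes are red in INT and blue in NINT, and INT male 3 is often paler than the other INT males. The F0 mean is nearer to INT for 97 of the 126 (77.0%), beside 70.1% of all genes tested.

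The largest fold change of all belonged to lncRNA:CR45530 (X chromosome) and rested on a pair of libraries. It had 0.959, 597 and 13.8 CPM in INT males, against 0.363, 0.218 and 0.306 CPM in NINT males. INT females had 1.38, 569.7 and 0.279 CPM, against 1.31, 0.501 and 1.27 CPM in NINT females, which overlapped. The log2 was 8.46 (SE 1.99, adjusted p = 0.044), and both values above 500 CPM belonged to replicate 2 of INT.

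The entries snoRNA:Or-CD11a, snoRNA:Or-CD11b and snoRNA:Or-CD11c, at log2 0.81, 0.85 and 0.85, lie beside each other on 3L, and the b and c entries start 2 bases apart, so they count as 1 signal. Of the 126 shared genes 116 were protein-coding, 4 lncRNA, 2 antisense RNA and 4 snoRNA entries. The 115 with a coding length in the annotation encoded a median of 372 residues, beside 405 for all tested protein-coding genes, with 384 for those higher and 272.5 for those lower in INT. Altogether 52 of the 126 entries overlapped another entry, 39 of them one on the other strand.

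Chromosome arm 3L held 33 of the 126 shared genes (26.2%), beside 18.9% of genes tested. Arm 2L held 19 (15.1%, beside 20.1%), 2R 25 (19.8%, beside 20.7%), 3R 26 (20.6%, beside 23.7%) and X 20 (15.9%, beside 15.6%). Chromosome 4 held 3 and the Y chromosome 0. There were 22 shared genes with another shared gene starting within 20 kb, in 14 pairs, of which 13 had the same direction and 4 overlapped.

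Several lists without a shared gene still had a common sign. Of 32 DNA replication and cell cycle genes, 30 were below 0 in each sex with a median of -0.76, and of 21 piRNA pathway genes 20 were below 0 in each sex with a median of -0.42. Neither list held a called gene. In adult flies both lists act largely in the germline. The medians were -1.19 and -0.63 in males, where the NINT libraries also held ovary markers, and -0.29 and -0.18 in females; the part of ovary RNA in them was not tested. The ovary and eggshell list itself had 3 of 31 genes called lower, 1 of them shared (Yp1). Insulin, TOR, antioxidant and lifespan genes had 0 of 41 called and a median of 0.02, the same as over all genes tested. Immune recognition and melanization genes had 2 of 41 called lower, cytosolic ribosomal protein genes 0 of 93, cytochrome P450 genes 0 of 82 and glutathione transferase genes 0 of 35, none of them shared. Over all genes tested 1.95% were called (0.595% called lower), so lists of this size would hold few calls at that share.

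The founders served only to place these levels. INT over F0 and NINT over F0 share the F0 libraries, so both are given as values. For mat the log2 was 1.11 (SE 0.23) in INT over F0 and 3.26 (SE 0.24) in NINT over F0. Averaged over the sexes, the F0 level was nearer to INT than to NINT for 97 of the 126 shared genes (77.0%), beside 70.1% of all genes tested, a share near that background.

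Dso2 and rgr stood just inside the adjusted p over both sexes (0.0493 and 0.0494), and beat-IIIb and CG4666 just outside (0.0514 each). At the unadjusted threshold of a single sex in edgeR's test, CG43057 (0.0484 in females) and dpr19 (0.0495 in males) were just inside, and lncRNA:CR45251 (0.0501 in males) and Cdk5alpha (0.0511 in males) just outside. Of the 173 genes called over both sexes without being shared, 117 had support in females only, 49 in males only and 6 in neither, and 22 had opposite signs in the sexes. ImpE1 had a p under 0.05 in each sex, with opposite signs. The 3 with the smallest p, CG14022 (log2 1.34), CG17127 (log2 2.04) and Osi9 (log2 2.45), were supported in females only, with male log2 fold changes of 0.23 (SE 0.18), 0.13 (SE 0.23) and 0.49 (SE 0.32).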

How the data were processed

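RNA of whole flies was isolated with Trizol, and the SMARTer Stranded RNA-Seq Kit was used for the libraries, per the labels' protocols. The authors deposited 2 tables of raw read counts per gene, 1 for each sex, not normalised. The genome build dm6 and DESeq2 are named in the submitters' processing notes, while no source used here names the aligner, the counting tool or the strand setting, so overlapping and antisense entries are uncertain. Of 16747 entries, 16642 found a gene in the RefSeq annotation of Release 6, which gave current symbols and coordinates, and 109 were ribosomal RNA.

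Counts were joined by row and fitted with edgeR 4.0.16 (limma 3.58.1, R 4.3.3), with 1 coefficient for each of 6 groups of sex and line, TMM scaling, filterByExpr (minimum count 10, minimum total count 15) and the two-sided quasi-likelihood F-test. The contrast was the mean of male and female INT minus the mean of male and female NINT. Each sex was also fitted alone on its 9 libraries, and the interaction was the female log2 fold change minus the male one. Adjusted p-values are Benjamini-Hochberg values over all genes tested in a fit. Reported log2 fold changes are from these fits, and levels are CPM with TMM-scaled library sizes. Library totals are counts over all entries.

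The rule for support in each sex, an unadjusted p under 0.05, was chosen because few genes passed adjustment in a single sex. Members, the 26 gene lists and the naming rule were chosen with earlier results of these data known. Named genes were shared genes of at least 5 CPM in a group with the 12 smallest p in each direction, the 16 list members with the smallest p, the 2 largest fold changes in each direction, 3 called genes without support and 2 interaction genes; others are marked in the text as picked after their values were seen, as were Tsf1, Acbp5, Acbp6, MtnD, inaF-B, CG9458, CG9459 and the snoRNA entries. The scripts' tests were checked on simulated counts. Alternatives were DESeq2 1.42.0, RLE scaling, other filters on low counts, library sizes without ribosomal RNA, a replicate block, INT and NINT libraries only, each library left out, and stricter support. Tables and figures used Python 3.11.15, pandas 2.3.3 and matplotlib 3.10.9.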

Additional observations from a re-analysis of the deposited data

Results flagged for a closer look

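For 7 of the genes named here, the INT over NINT difference itself differed between the sexes (female minus male log2, edgeR quasi-likelihood interaction test with Benjamini-Hochberg adjustment). Among shared genes these were neo, with a difference of 3.20 (adjusted p = 0.016), and CG12017, with a difference of 5.2 (adjusted p = 0.017). CG12017 had 0.85, 0.383 and 0.592 CPM in INT females, against 0.0184, 0 and 0 CPM in NINT females, so its female fold change rests on very few counts. In males it had 2.36, 2.5 and 1.26 CPM in INT, against 0.898, 1.2 and 1.38 CPM in NINT.

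Among genes called over both sexes with support in females only, CG14022 differed by 2.07 (adjusted p = 0.016), CG17127 by 3.68 (adjusted p = 0.016) and Osi9 by 3.81 (adjusted p = 0.031). CG14022 had 13.9, 16.7 and 16.7 CPM in INT females, against 2.69, 3.36 and 3.1 CPM in NINT females, while in males it had 17.5, 15.6 and 9.72 CPM in INT, against 11.1, 12.6 and 11.1 CPM in NINT.

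The sexes went opposite ways for ImpE1 and fit. ImpE1, an ecdysone-inducible gene, differed by 4.80 (adjusted p = 0.0021), with 3.61, 3.21 and 2.44 CPM in INT females, against 0.129, 0.209 and 0.269 CPM in NINT females, and 0.379, 0.299 and 0.359 CPM in INT males, against 0.406, 0.546 and 0.985 CPM in NINT males. fit, a female-specific gene of the fat body, differed by 3.91 (adjusted p = 0.017), with 40.1, 35.6 and 20.4 CPM in INT females, against 8.34, 12.8 and 14.1 CPM in NINT females, and 0.558, 0.549 and 0.247 CPM in INT males, against 1.97, 3.52 and 2.01 CPM in NINT males.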

How the results depend on the processing

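Every one of the 126 shared genes kept its direction over both sexes in each alternative that tested it (106 with the filter of 5 CPM in 3 libraries). The alternatives reuse libraries that chose the genes, so this is no independent check. The same direction in each sex was found for 122 of the 126 with INT and NINT libraries only and 82 of the 106 with that filter. Genes filtered out in 1 sex may be among the rest. Under the other alternatives it was 125 or 126. The counts of calls moved widely. Shared genes numbered 367 with DESeq2, 18 with the replicate block and 489 with INT and NINT libraries only (17 of the 18 and 108 of the 489 among the 126), 42 at p under 0.01 in each sex, 285 without the call over both sexes, and 22 to 547 with 1 library left out. With an adjusted p under 0.05 asked of each sex, 0 genes were shared, against 126 at an unadjusted p under 0.05 in each. Calls over both sexes numbered 1316 with DESeq2, 33 with the block, 1410 with INT and NINT libraries only and 51 to 2696 with 1 library left out. In males they numbered 905, 0 (1820 at an unadjusted p under 0.05) and, with 1 library left out, 0 to 3956; in females 865, 3, 1320 and 4 to 153. Calls in the interaction numbered 505 with DESeq2, 22 with RLE scaling, 21 without a filter, 26 with the 5 CPM filter, 25 without ribosomal RNA, 0 with the block (1513 at an unadjusted p under 0.05), 192 with INT and NINT libraries only and 5 to 702 with 1 library left out. Without NINT males 2 and 3, the counts were 18 over both sexes, 9 shared, 10 in males and 0 in the interaction (1033 unadjusted); with INT female 3 left out too, 6, 5, 10 and 0 (881 unadjusted). Without INT male 3 and INT female 3, chosen after seeing the data, they were 1507, 353, 3956 in males and 529. The cause of these shifts was not tested.

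Of the calls over both sexes 69.6% were higher in INT, against 54.7% with DESeq2, 58.3% without a filter, 56.9% without ribosomal RNA and 47.7% with INT and NINT libraries only. With 1 library left out the share was 22.7% (without INT male 3) to 82.5%, and it was 39.9% without INT male 3 and INT female 3 and 44.4% without NINT males 2 and 3. The replicate numbers share no stated batch, and deviations of same-numbered INT and NINT libraries correlated at -0.112 to 0.417; not every library correlated best with its own number. Values of the 40 named shared genes under other settings numbered 879. Of these, 265 fell short of the adjusted p threshold over both sexes and 0 changed sign, in the same libraries that chose the genes. Support in each sex was not part of this count. Some of the other values had lost it, such as Spn43Aa and CG14687 without INT male 1. The 40 are those of the naming rule, so Tsf1 and MtnD, among others, are left out. List medians changed sign in 42 of 546 values, on lists with medians from -0.23 to 0.18.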
